A study of Homo sapiens with 6 samples.

Results

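The aryl hydrocarbon receptor (AHR) pathway was followed through 9 genes, which were the receptor AHR, its partner ARNT, its repressor AHRR, the targets CYP1A1, CYP1A2, CYP1B1, TIPARP and ALDH3A1, and the quinone reductase NQO1. A gene was taken where a probe set of the array was annotated to its symbol alone, with the brightest probe set kept had there been several. This gave 8 of the 9 genes, each with 1 probe set, out of 19460 probe sets annotated to 1 symbol. AHRR shares its probe set with PDCD6 and was not analysed here. The cells were neural stem cells, self-renewing neural precursors, from SA-01, a line of human embryonic stem cells, at passage 14. They were plated on polyornithine and laminin and received, 5 h later and for 24 h, DMSO at 0.1% as solvent control (3 arrays) or X5050 at 100 µM (3 arrays), a compound that the series title calls an inhibitor of the neuronal gene repressor REST. The labels do not state how much DMSO the X5050 samples contained. Arrays with the same replicate number were read from the design text as 1 culture split between both treatments, so there were 3 cultures of 1 line. The p-values of the paired limma fit weigh a change against its spread over these cultures. In limma each probe set's variance is also drawn toward a value shared by all tested probe sets. The comparison asks how the receptor, its partner and its targets differed between X5050 and DMSO in the same culture. Every level below is a log2 signal, and every change is the X5050 signal minus the DMSO signal of the same culture.

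AHR is a ligand-activated transcription factor that waits in the cytoplasm with HSP90 and co-chaperones. On binding a ligand such as a dioxin or a tryptophan metabolite it enters the nucleus, pairs with ARNT and binds xenobiotic response elements, whose core reads GCGTG. Its classical targets are the cytochrome P450 genes CYP1A1, CYP1A2 and CYP1B1, while TIPARP and AHRR feed back to restrain it. NQO1 and ALDH3A1 are shared with other regulators, NQO1 above all with the oxidative stress factor NRF2.

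CYP1B1 fell with X5050 in every culture by nearly the same amount, while CYP1A1 lay close to no change. NQO1 was lower in every culture too but missed the threshold, and AHR, ARNT and TIPARP, with changes between -0.23 and 0.26, did not pass either. Of the 8 genes 1 fell and 0 rose at an adjusted p under 0.05 in the limma fit with culture as a block. Over all probe sets 0.308% fell and 0.19% rose, 0.498% together. At an unadjusted p under 0.05 there were 3 of the 8 genes in that fit, against 14.5% of all probe sets. In the limma fit without the block 0 of the 8 genes passed, beside 0% of all probe sets, with 1 of the 8 and 9.37% of all at an unadjusted p under 0.05. The median change of the 8 genes was -0.050, and that of all probe sets was 0.0092.

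**Figure D1:**
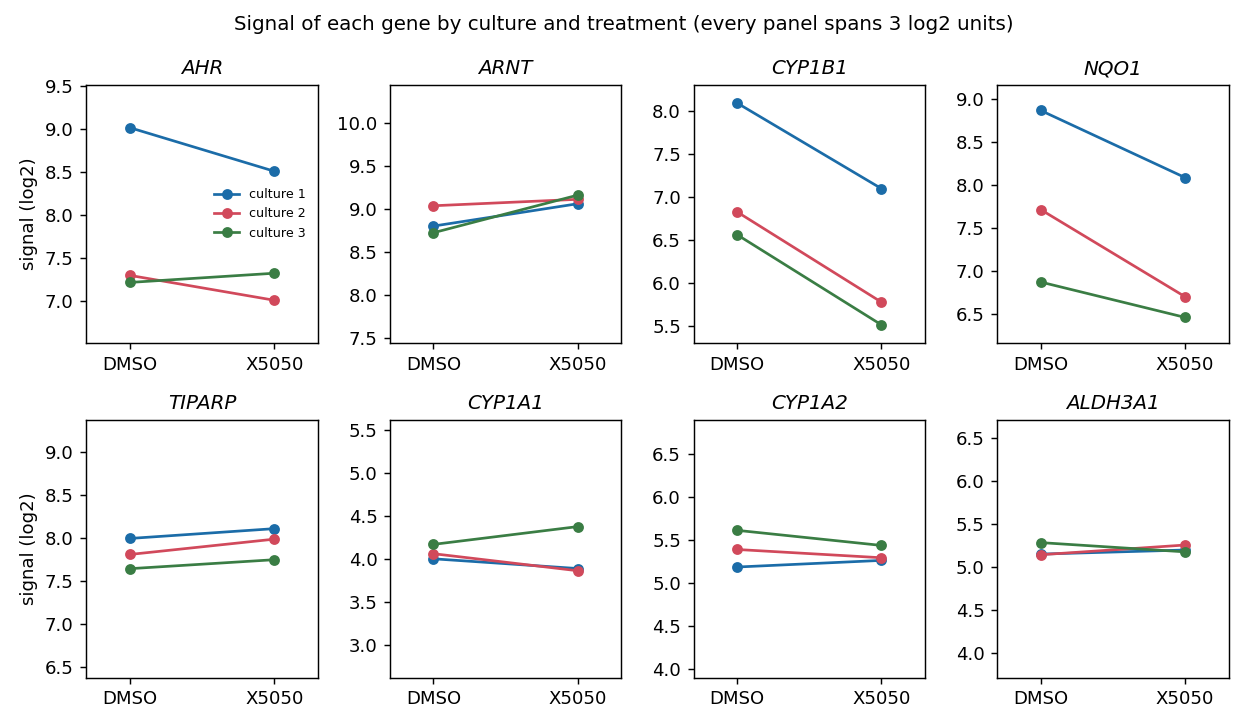
Log2 signal of the 8 genes (y axis) with DMSO and X5050 (x axis), 1 line per culture and 3 log2 units in every panel. The CYP1B1 lines fall in parallel, with changes of -0.997, -1.05 and -1.05, whereas the CYP1A1 lines stay between 3.86 and 4.38.

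CYP1B1 encodes a P450 that oxidises oestrogens, retinoids and polycyclic hydrocarbons and is found mostly outside the liver. Its signal with DMSO was 8.09, 6.83 and 6.56 in cultures 1, 2 and 3. With X5050 it was 7.10, 5.78 and 5.51 in the same order. Culture 1 was highest under either treatment, and its X5050 value lay above the DMSO values of cultures 2 and 3, so the groups overlapped although each culture fell. The changes were -0.997, -1.05 and -1.05, a mean 2.05-fold reduction (log2 change -1.03, paired SE 0.086, 95% interval -1.23 to -0.83, adjusted p = 0.00815 by limma with the culture block, n = 3 cultures). Only 15 of the 19460 probe sets had a more negative mean change. The 3 changes spanned 0.054, and 2.79% of all probe sets had a narrower span. The SE of 0.086 also reflects the spread of other probe sets, toward which limma draws each variance. Without the block the same change had an adjusted p of 0.582 in limma and was not called. Without culture 3 the change was -1.02 with an adjusted p of 0.0689 in the paired limma fit, and without culture 1 or culture 2 it was 0.00223 or 0.0160.

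CYP1A1, the P450 most often used as a readout of AHR activity, did not pass the test. Its signal with DMSO was 4.004, 4.06 and 4.17, and with X5050 it was 3.89, 3.86 and 4.38. The groups overlapped, and culture 3 moved up while cultures 1 and 2 moved down. The change was -0.035 (paired SE 0.11, 95% interval -0.28 to 0.21, adjusted p = 0.929 by limma). The probe set is dim. It stood between percentiles 19.8 and 28.9 of all probe sets across the 6 arrays, where the summarised log2 signal compresses changes, and no detection measure was used here.

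The change of CYP1B1 was more negative than that of CYP1A1 in each culture, by 0.883, 0.852 and 1.26 on the log2 scale in cultures 1, 2 and 3. The mean difference between the changes was -0.997 ± 0.22 (SD, n = 3 cultures), with p = 0.25 in a two-sided exact sign-flip permutation test over cultures, which is the smallest p that 3 cultures allow. This was the 1 comparison between a pair of genes, and the pair was chosen with the changes of both known. CYP1A1 changed by -0.035 on a dim probe set, where changes are compressed. The difference therefore mostly restates the CYP1B1 change of -1.03. The mean difference lay between -1.07 and -0.87 when 1 culture was left out.

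**Figure D2:**
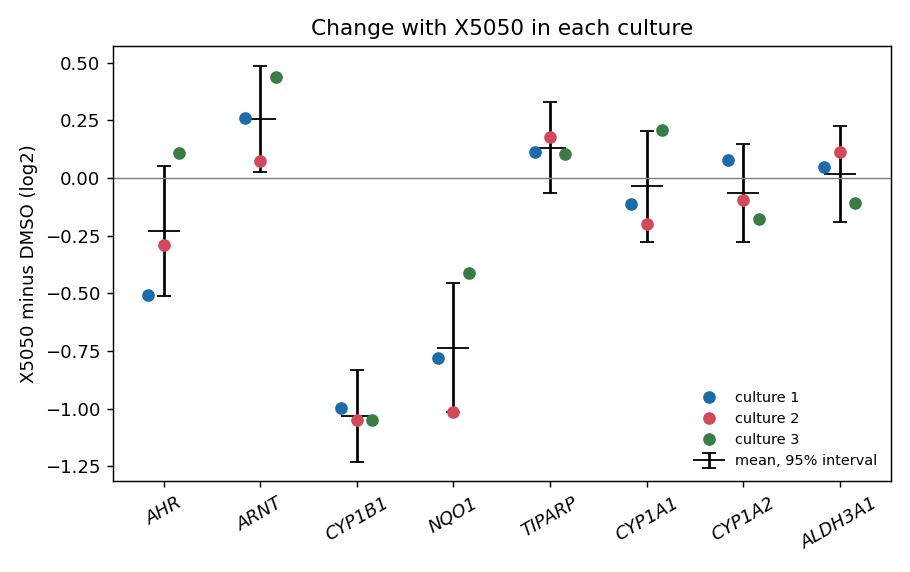
Change with X5050 (y axis, log2, X5050 minus DMSO) of the 8 genes, with 1 point per culture and, in black, the mean with the 95% interval of the paired limma fit. The interval of CYP1B1 (-1.23 to -0.83) lies entirely below that of CYP1A1 (-0.28 to 0.21), and the NQO1 points run from -1.01 to -0.41. The CYP1A1 probe set is dim, where the summarised signal compresses changes.

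Because CYP1A1 and TIPARP are textbook AHR targets while NQO1 was the other gene lower in every culture, the 250 bases before their start sites are shown, with each GCGTG core in capitals on either strand (read as CACGC where it lies on the other strand). They come from RefSeq on GRCh38.p14, 5′ to 3′ along the gene, which held 10 start sites for 7 of the 9 genes (AHR, AHRR, ARNT, CYP1A1, CYP1A2, NQO1 and TIPARP). CYP1A1 lies at chr15:74725529-74725778 on the minus strand, the first TIPARP start at chr3:156674340-156674589 on the plus strand and NQO1 at chr16:69726561-69726810 on the minus strand.
CYP1A1: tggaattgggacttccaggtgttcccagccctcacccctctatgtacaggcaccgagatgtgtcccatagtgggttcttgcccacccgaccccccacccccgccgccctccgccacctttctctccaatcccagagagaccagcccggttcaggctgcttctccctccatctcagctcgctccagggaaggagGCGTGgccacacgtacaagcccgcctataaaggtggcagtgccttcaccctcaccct
TIPARP: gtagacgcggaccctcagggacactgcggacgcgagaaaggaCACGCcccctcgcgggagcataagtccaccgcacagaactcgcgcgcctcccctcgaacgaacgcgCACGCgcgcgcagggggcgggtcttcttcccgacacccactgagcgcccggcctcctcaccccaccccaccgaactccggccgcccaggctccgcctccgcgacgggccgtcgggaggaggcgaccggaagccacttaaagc
NQO1: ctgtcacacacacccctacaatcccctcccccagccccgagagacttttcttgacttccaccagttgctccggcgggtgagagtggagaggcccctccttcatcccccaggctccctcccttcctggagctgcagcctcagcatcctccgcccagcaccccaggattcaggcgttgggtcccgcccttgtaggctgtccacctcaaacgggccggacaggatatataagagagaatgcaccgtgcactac
GCGTG was found once in the CYP1A1 window, 57 to 53 bases before the start, and in the TIPARP window at 208 to 204 and 142 to 138 bases before it. It was not in these letters for NQO1, AHR, ARNT, CYP1A2 or the other TIPARP starts, while the AHRR windows held 1 and 2. Of 35114 promoter windows of 250 bases, 32.2% held GCGTG on either strand. The core of the element bound by NRF2, TGACNNNGC, was in the ARNT window alone among the 10, against 10.9% of all windows, and no window of these genes held both motifs. These matches describe the windows only.

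NQO1 reduces quinones fully, without the reactive semiquinone step. Its signal with DMSO was 8.86, 7.71 and 6.87 in cultures 1, 2 and 3, and with X5050 it was 8.08, 6.70 and 6.46. As for CYP1B1 the order of the cultures was kept, and the groups overlapped because culture 1 with X5050 exceeded cultures 2 and 3 with DMSO. The changes were -0.78, -1.01 and -0.41, a mean of -0.74 (1.67-fold, paired SE 0.12, 95% interval -1.01 to -0.46). In the paired limma fit the adjusted p was 0.0523, which misses the threshold, and without the block it was 0.778. The paired call depended on the setting. The adjusted p in limma was 0.0473 after centring each array on its median, 0.0447 with the median of a symbol's probe sets, 0.0460 without the dimmest 25% of probe sets and 0.0259 with a variance trend on mean signal, but 0.0639 after another quantile normalization. Without culture 1, 2 or 3 it was 0.0306, 0.0940 and 0.109. The fall was least in culture 3, and the span of its 3 changes, 0.60, was wider than that of 90.0% of all probe sets.

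AHR, the receptor itself, had a signal of 9.02, 7.30 and 7.22 with DMSO and 8.51, 7.01 and 7.33 with X5050. It was lower in cultures 1 and 2 and higher in culture 3, with changes of -0.51, -0.29 and 0.11. The mean change was -0.23 (paired SE 0.12, 95% interval -0.51 to 0.053, adjusted p = 0.456 by limma with the block), and it was -0.091 without culture 1. ARNT, which pairs with AHR and with the hypoxia factors, had a signal of 8.80, 9.04 and 8.73 with DMSO and 9.06, 9.12 and 9.17 with X5050. It was the only 1 of the 8 genes whose X5050 values all lay on one side of the DMSO values, above them, which held for 7.51% of all probe sets (14.9% counting either direction). Its change of 0.26 (1.20-fold, paired SE 0.10) did not pass in limma (adjusted p = 0.284 with the block, 0.505 without). Thus the receptor and its partner had changes of unlike sign, neither past the threshold.

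TIPARP, a mono-ADP-ribosyltransferase that AHR induces and that in turn restrains AHR, had a signal of 7.998, 7.81 and 7.65 with DMSO. With X5050 its signal was 8.11, 7.99 and 7.75. It was higher in all 3 cultures, by 0.11, 0.18 and 0.10 (mean 0.13, paired SE 0.087, adjusted p = 0.565 by limma). Of the 8 genes TIPARP and ARNT were higher in every culture, as were 18% of all probe sets, and CYP1B1 and NQO1 were lower in every culture, as were 17.5%. These 4 of 8 genes with 1 sign in all cultures compare with 35.5% of all probe sets. CYP1A2, the liver P450 next to CYP1A1 in the genome, had a signal of 5.19, 5.39 and 5.61 with DMSO and 5.26, 5.29 and 5.44 with X5050 (change -0.065, paired SE 0.093, adjusted p = 0.832 by limma). ALDH3A1, an aldehyde dehydrogenase known from cornea and stomach, ran from 5.14 to 5.29 with DMSO and from 5.18 to 5.26 with X5050. Its change was 0.018 (paired SE 0.092, adjusted p = 0.959 by limma), and its sign turned with the scaling of the arrays. Groups overlapped for TIPARP, CYP1A2 and ALDH3A1, and both CYP1A2 and ALDH3A1 stayed under the array median, between percentiles 40.8 and 48.1.

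From the highest to the lowest culture, AHR, CYP1B1 and NQO1 differed by more than their mean change with treatment. This held through culture 1 only. The culture 2 mean minus the culture 3 mean was -0.12, 0.26 and 0.54, beside mean changes of -0.23, -1.03 and -0.74, in that order. By the limma F test for culture, with treatment in the model, these 3 of the 8 genes passed, against 2.93% of all probe sets. The mean of the DMSO and X5050 signals of CYP1B1 was 7.60, 6.30 and 6.04 in cultures 1, 2 and 3 (adjusted p = 0.00124 by the limma F test). For NQO1 it was 8.47, 7.204 and 6.66 (adjusted p = 0.00230), and for AHR 8.77, 7.16 and 7.27 (adjusted p = 0.00264). From the highest to the lowest culture this was 2.94-fold for CYP1B1, 3.51-fold for NQO1 and 3.05-fold for AHR. Culture 1 was the highest for all 3 genes. Without culture 1 none of the 3 passed, with adjusted p = 0.389 for CYP1B1, 0.110 for NQO1 and 0.798 for AHR by limma, so these calls rest on that culture. In TIPARP, ARNT, CYP1A1, CYP1A2 and ALDH3A1 the culture means spanned 0.056 to 0.36 and did not pass. The SD of the 3 DMSO arrays was 1.02 for AHR, 1.002 for NQO1 and 0.82 for CYP1B1, and 0.329%, 0.339% and 0.637% of all probe sets had a larger one.

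**Figure D3:**
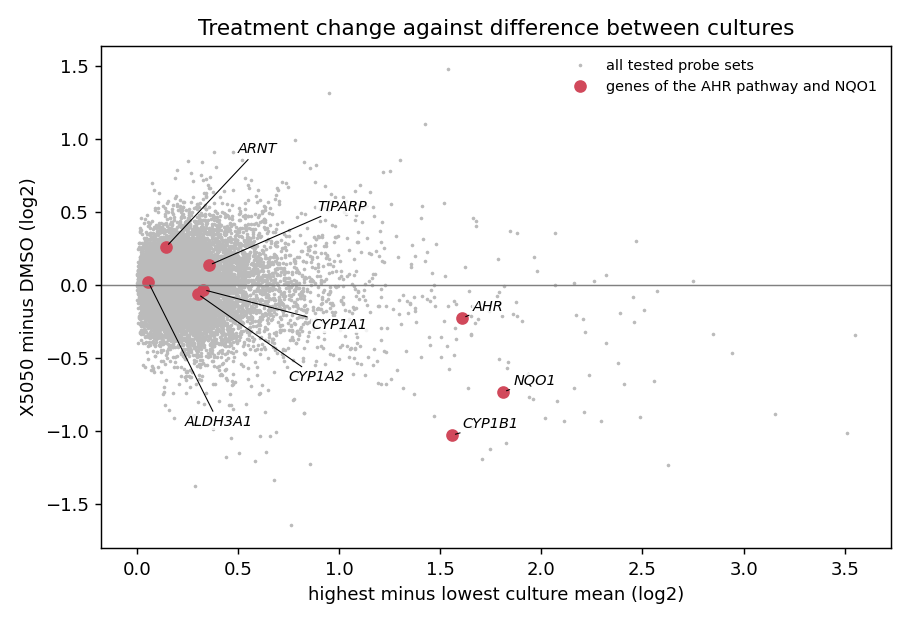
Change with X5050 (y axis, log2, X5050 minus DMSO) against the highest minus the lowest culture mean (x axis, log2), with grey points for the 19460 probe sets and red points for the 8 genes. AHR, NQO1 and CYP1B1 stand to the right with culture spans of 1.61, 1.81 and 1.56, and the other 5 genes lie within 0.36.

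Markers of neural stem cells and of neurons were both bright. Of 12 measured neural stem cell markers 8 were among the brightest 25% of probe sets on every array, as were 5 of 7 neuron markers, 2 of 7 astrocyte markers and 1 of 2 pluripotent cell markers. The bright pluripotent cell marker was DPPA4, and the listed POU5F1 and NANOG had no probe set annotated to their symbol alone. The mean log2 signal of the neuron markers ran from 8.65 to 9.07 over the DMSO arrays and from 8.75 to 9.01 over the X5050 arrays, and 0 of the 7 passed between treatments. Of the 12 neural stem cell markers 1 fell with X5050, against 0.308% of all probe sets. It was LIX1 (-1.38, adjusted p = 0.0177 by limma with the block and 0.172 without). Of the 12 neural stem cell markers 7 were below 0 and 5 above. Their mean changed by -0.13, -0.23 and -0.20 in cultures 1, 2 and 3. Of the 7 astrocyte markers 1 fell, GJA1 (-0.61, adjusted p = 0.0444 by limma with the block and 0.667 without), with 2 below 0 and 5 above. The array medians ran from 5.68 to 5.75. Of 5 microglia markers 3 were among the dimmest 25% on every array, and none of the 6 endothelial, 5 neural crest and 5 oligodendrocyte lineage markers was among the brightest 25% on every array. Mesenchymal markers stood apart between cultures, and all 16 of 16 were highest in culture 1, as were 32.1% of all probe sets. Of these 11 passed the limma F test between cultures, against 2.93% of all probe sets. So did 2 of 7 neuron, 2 of 7 astrocyte and 1 of 6 endothelial markers, and 0 in the other marker lists. The neuron marker mean was lowest in culture 1, at 8.65 with DMSO and 8.75 with X5050. Of the 16 mesenchymal markers 1 was among the brightest 25% on every array and none among the dimmest 25%. The endothelial, neural crest and oligodendrocyte lineage lists also held none among the dimmest 25%. The mesenchymal mean log2 signal ran from 6.81 to 8.23 over the DMSO arrays and from 6.63 to 7.80 over the X5050 arrays. Culture 1 was thus highest for the mesenchymal markers as for CYP1B1, NQO1 and AHR. Cultures 2 and 3 had mesenchymal means of 6.95 and 6.81 with DMSO and of 6.63 and 6.81 with X5050. The culture 2 mean minus the culture 3 mean was 0.26 for CYP1B1, 0.54 for NQO1 and -0.12 for AHR. In bulk RNA fewer cells of a type and less RNA per cell cannot be told apart.

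With X5050, 1 of the 16 mesenchymal markers fell and 0 rose in the paired limma fit, against 0.308% and 0.19% of all probe sets. Of the 16, 13 were below 0 and 3 above. The collagen-binding LUM was the one that fell (-1.09, paired SE 0.15, adjusted p = 0.0386 by limma with the block and 0.629 without), with changes of -0.99, -1.58 and -0.69 in cultures 1, 2 and 3. The mean over the 16 markers changed by -0.43, -0.32 and 0.0026 in the same order. In culture 3 that mean averaged 10 markers below 0 and 6 above, from LUM at -0.69 and PRRX1 at -0.29 to FBN1 at 0.50 and THY1 at 0.52. CYP1B1 changed by -1.05 in cultures 2 and 3 alike. NQO1 changed by -0.41 in culture 3, less than in cultures 1 and 2, and AHR by 0.11. Over the 6 arrays the mesenchymal mean had a Pearson r of 0.997 with AHR, 0.928 with NQO1 and 0.884 with CYP1B1. These are descriptions over 6 arrays that share 3 cultures, and the part of mesenchymal cells in the changes was not tested.

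**Figure D4:**
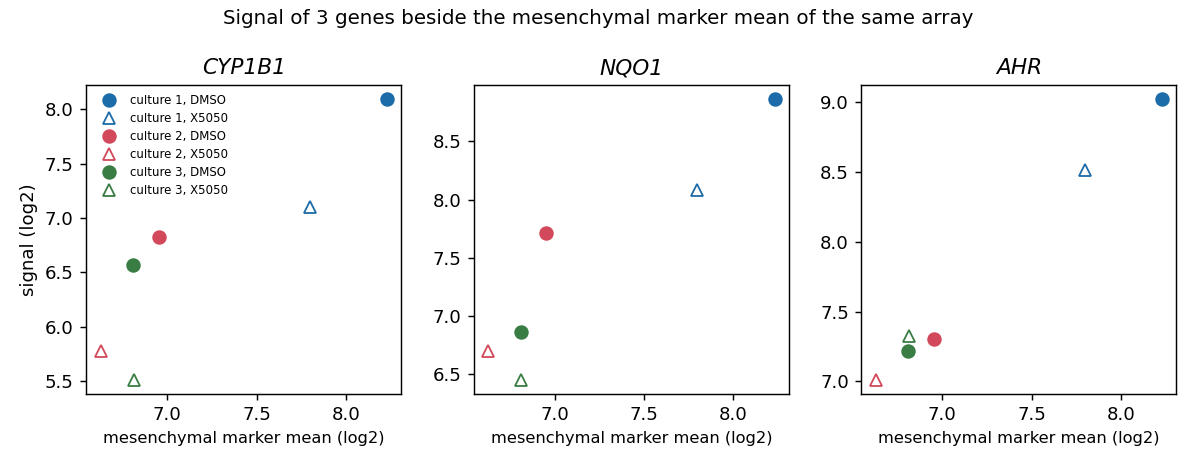
Log2 signal of CYP1B1, NQO1 and AHR (y axes) against the mean log2 signal of 16 mesenchymal markers on the same array (x axis), with filled circles for DMSO, open triangles for X5050 and a colour per culture. In culture 3 the marker mean, an average of 10 markers that were lower with X5050 and 6 that were higher, was 6.81 under both treatments, and CYP1B1 went from 6.56 to 5.51.

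Over the 6 arrays the profile of CYP1B1 was most like those of SRPX2, a secreted protein (Pearson r = 0.995), the gap junction protein GJA1 (0.992), the tropomyosin TPM2 (0.985), the chaperone HYOU1 (0.981) and EPCIP (0.981). The search covered 1421 symbols whose SD over the arrays was at least 0.3. Each of these 5 combined a high culture 1 with a lower signal under X5050, with changes of -0.44, -0.61, -0.48, -0.38 and -0.68 in that order. This shared pattern follows from choosing them by likeness to CYP1B1 on the same arrays. GJA1 (adjusted p = 0.0444) and EPCIP (0.0369) fell in the paired limma fit. NQO1 was most like ANXA2 (0.995), SHROOM3 (0.993), the protease ADAM12 (0.990), DRAM1 (0.989) and the malic enzyme ME1 (0.988). AHR was most like GRAMD2B (0.997), RSU1 (0.996), the integrin-associated protein CD47 (0.995), the ectonucleotidase NT5E (0.995) and ARHGAP29 (0.994). Those 5 had changes between -0.25 and -0.13, none past the threshold in limma. Among themselves CYP1B1 and NQO1 had an r of 0.963, NQO1 and AHR 0.895 and CYP1B1 and AHR 0.847, again over 6 arrays that share cultures.

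Around the pathway 117 further genes in 8 lists were followed, of which 107 were measured by a probe set of their own. In the paired limma fit 2 fell and 0 rose, against 0.308% and 0.19% of all probe sets. Upstream of the receptor, 0 of 10 measured genes of the AHR complex and its coregulators passed (median change 0.064). The acetyltransferase EP300 (0.26), the coactivator NCOA1 (0.16) and the acetyltransferase CREBBP (0.14) had the smallest p. The kynurenine pathway makes AHR ligands from tryptophan, and 0 of its 9 genes passed (median 0.045). Of these, 5 (IDO1, IDO2, TDO2, KMO and KYNU) never rose above percentile 21.2 of an array, where the summarised signal compresses changes. For these 5 a missing call does not show that the gene was unchanged. IDO2 was lower in all 3 cultures (-0.36, paired SE 0.089, adjusted p = 0.119 by limma) but never rose above percentile 21.2 of an array, beside KYAT3 (0.22) and KMO (0.12). Of the 13 other bHLH-PAS factors, the protein family of AHR and ARNT, 0 passed (median 0.068), with CLOCK at 0.26, NPAS3 at 0.18 and SIM1 at -0.13.

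Downstream, 0 of 12 measured further AHR targets passed (median -0.040, 9 below 0 and 3 above). The prostaglandin synthase PTGS2 (0.19), the amino acid transporter SLC7A5 (-0.32) and the Notch effector HES1 (-0.17) led by p. SLC7A5 changed by -0.61 and -0.58 in cultures 1 and 2 and by 0.24 in culture 3. Among 14 measured targets of the hypoxia factors, which share ARNT, 0 passed (median 0.056), although the mitophagy receptor BNIP3 was higher (0.45, paired SE 0.090, adjusted p = 0.0770 by limma) and the glucose transporter SLC2A1 lower (-0.41, paired SE 0.097, 0.113) in all 3 cultures, with PGK1 at -0.24.

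NRF2 targets, which share a regulator with NQO1, did not move one way. Of 18 measured genes 1 fell and 0 rose, with 12 below 0, 6 above and a median of -0.060. ME1, which makes NADPH, had a signal of 8.76, 7.34 and 6.24 with DMSO and 7.47, 6.32 and 5.75 with X5050. It fell, with changes of -1.29, -1.02 and -0.49 in cultures 1, 2 and 3 (mean -0.94, paired SE 0.14, adjusted p = 0.0444 by limma with the block and 0.748 without). GCLC, the catalytic subunit of glutathione synthesis, lay on the other side with 8.09, 7.93 and 7.91 with DMSO and 8.60, 8.54 and 8.27 with X5050, with no overlap (change 0.49, paired SE 0.093, adjusted p = 0.0709 by limma). The sugar nucleotide enzyme UGDH stood at -0.22. HMOX1, a sensitive NRF2 target in many cells and chosen here after its value was seen, stood at 0.049. Of the 18 genes 16 were highest in culture 1, against 32.1% of all probe sets, and 4 passed the limma F test between cultures, against 2.93%.

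Among 22 other cytochrome P450 genes and redox partners 1 fell and 0 rose (median -0.00070). It was CYP51A1, a sterol demethylase of cholesterol synthesis rather than a xenobiotic enzyme. CYP51A1 had a signal of 9.99, 9.66 and 9.76 with DMSO and 9.31, 8.87 and 9.17 with X5050, without overlap (change -0.68, paired SE 0.091, adjusted p = 0.0328 by limma with the block and 0.299 without). The reductase CYB5R3 (-0.20) and the oxysterol hydroxylase CYP39A1 (0.20) followed by p. Of 9 other aldehyde dehydrogenases and quinone reductases 0 passed (median 0.083), and ALDH3A2, a fatty aldehyde dehydrogenase of the same family, was higher in all 3 cultures (0.25, paired SE 0.087, adjusted p = 0.224 by limma), with ALDH2 at 0.14 and ALDH1A1 at 0.13. Without culture 2 or without culture 3, neither ME1 nor CYP51A1 passed.

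**Figure D5:**
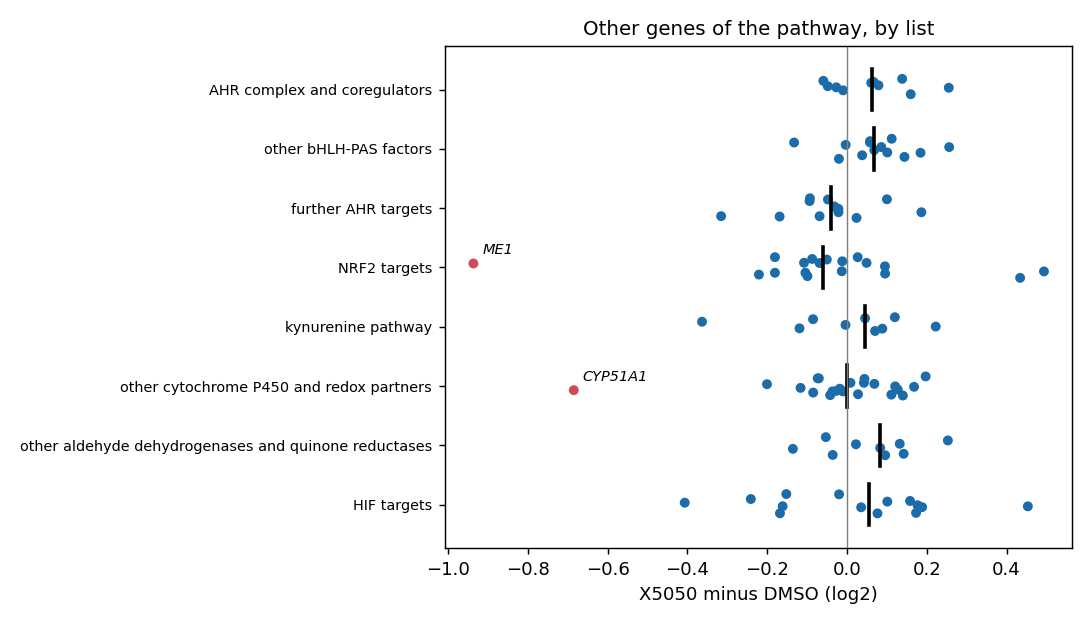
Change with X5050 (x axis, log2, X5050 minus DMSO) of the measured genes of 8 lists, with 1 point per gene, a black bar at each list's median and red for an adjusted p under 0.05 in the paired limma fit. ME1 (-0.94) and CYP51A1 (-0.68) are the red points, and the list medians lie between -0.060 and 0.083.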

How the data were processed

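Each sample's total RNA (100 ng) was labelled with the Affymetrix sense-target kit and read on its own array, per the labels' protocols. The authors deposited a log2 signal for every probe set, made with RMA and Partek per the submitters' processing notes. Not given in the sources used here are their versions, settings and genome build. RMA gives arrays a common distribution of probe intensities before they are summarised, and the medians of the deposited values still ran from 5.68 to 5.75. It compresses the changes of dim probe sets, and the folds given are ratios on that scale. Of 33297 probe sets 19460 had 1 gene symbol in the platform annotation and were tested, 1754 had several and 12083 are unnamed here.

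Treatments were compared in limma 3.58.1 (R 4.3.3, lmFit and eBayes, two-sided, culture as a block), with Benjamini-Hochberg adjustment over all 19460 probe sets and a threshold of 0.05. Same-numbered arrays were read from the design text as 1 culture. Over all probe sets the 3 same-numbered pairs deviated together from their group means (r = 0.365, 0.297 and 0.255). Arrays of unlike number did not (-0.236 to -0.052), which is no separate observation, because deviations from a group mean cancel out within the group. The number of arrays limits the precision. The fit was tested on simulated data. The genes and lists were chosen with earlier results of these data known. Named list genes are those past the threshold and the 3 with the smallest p in each list, with the 5 symbols most correlated with CYP1B1, NQO1 and AHR. Alternatives were no block, other scalings, probe set and dimness rules, a variance trend and leaving out each culture. Promoter windows came from RefSeq (GRCh38.p14). Figures used matplotlib 3.10.9.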

Additional observations from a re-analysis of the deposited data

How the results depend on the processing

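With no replicate block, 0 of the 8 genes and 0 of the 107 list genes were lower at the threshold, against 1 and 2 with it. CYP1B1 kept its sign under all 9 alternatives, from -1.05 to -1.02, and lost its call without the block and without culture 3. The count of genes lower was 2, CYP1B1 and NQO1, with arrays centred on their medians, with the median of a symbol's probe sets, without the dimmest 25% of probe sets and with a variance trend. Leaving out each replicate (culture) in turn, it ran from 0 to 2, the count of genes differing between cultures from 0 to 3 and the count of list genes lower from 0 to 2. After another quantile normalization 1 list gene was lower, CYP51A1, and with a variance trend 2 were higher, GCLC and BNIP3. The changes that turned sign were never past the threshold. Leaving out each replicate, CYP1A1 ran from -0.16 to 0.047 (0.0043 without culture 1) and ALDH3A1 from -0.030 to 0.080, and ALDH3A1 was -0.0015 with arrays centred and -0.011 after another quantile normalization. Of 71 changes of the 8 genes under alternatives, 59 kept direction and side of the threshold. Over all probe sets 51 were called after another quantile normalization, 274 with a variance trend and 346, 81 and 0 without culture 1, 2 and 3, against 97. The cause of these shifts was not tested. CYP1A1 was not in the fit without the dimmest 25%. With 3 cultures and no measure of signal over background, small changes of dim probe sets such as CYP1A1 were not detectable.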
